A study of Homo sapiens with 6 samples.

Results

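Transcripts of 8 secreted hormones and growth factors that cells release under stress were followed in MDA-MB-231 cells, a widely used line derived from a triple-negative tumour of the breast. The genes were GDF15, ADM2, ADM, STC1, STC2, VEGFA, FGF21 and ANGPTL4, taken by symbol from a table of 58735 genes, and all 8 were listed. In 3 libraries the cells had received a vector carrying DNAJC12, which encodes a J-domain co-chaperone (overexpression libraries), and in 3 the empty vector. All 6 came from the same line with no other agent named, and the labels do not say whether the libraries of a group were separate cultures, so the p-values reflect no more than the spread among these libraries, and that spread may be technical. The genes were selected on their log2 fold changes and levels in this same comparison, which were already known. Their fold changes and calls therefore describe these libraries and are not independent support for any pattern.

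The factors belong to stress programmes that overlap. In the integrated stress response, kinases that sense amino acid shortage, misfolded protein or other damage slow translation while the transcription factor ATF4 is made and switches on its target genes, among which GDF15, FGF21, ADM2, STC2 and VEGFA have been counted in other work. In low oxygen, the hypoxia-inducible factors (HIF) bind short elements beside genes such as VEGFA, ADM, STC1 and ANGPTL4. ANGPTL4 is also a classical target of the lipid-sensing PPAR receptors. Once secreted, GDF15 curbs appetite through a hindbrain receptor, FGF21 adjusts metabolism in fasting, the adrenomedullins widen blood vessels, VEGFA drives vessel growth, ANGPTL4 inhibits lipoprotein lipase, and the stanniocalcins block the protease pappalysin that frees insulin-like growth factors.

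The stretches upstream of 3 of the genes are shown, plus-strand genes with unbroken runs of 133 to 250 searched bases outside annotated exons. These stretches differ in the short elements named above. RefSeq promoters (GRCh38.p14) of 6 of the 8 genes were used, and the 250 bases before each start were searched on both strands. STC1 and VEGFA were not searched, which does not mean that they lack a promoter or these elements. All 250 bases of ADM and of STC2 and 241 of GDF15 lie inside GENCODE 29 exons, as do some of FGF21, 4 of ANGPTL4 and 0 of ADM2. The letters searched were TGATGCAA, the core of the C/EBP-ATF response element that ATF4 binds with a C/EBP partner, ACGTG and GCGTG, the cores of the hypoxia response element, TGACGTCA, the cyclic AMP response element, and the direct repeat that PPAR binds. No motif holds another in full. Each stretch below is 5′ to 3′ on the plus strand and is the longest run of the window outside those exons, and capitals mark the matches.
ADM2, chr22:50481293-50481542: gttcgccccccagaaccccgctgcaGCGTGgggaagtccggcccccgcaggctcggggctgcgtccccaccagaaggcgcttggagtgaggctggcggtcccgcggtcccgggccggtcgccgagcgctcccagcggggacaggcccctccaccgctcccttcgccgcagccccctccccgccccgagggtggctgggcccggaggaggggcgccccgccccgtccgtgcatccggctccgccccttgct
FGF21, chr19:48755391-48755523: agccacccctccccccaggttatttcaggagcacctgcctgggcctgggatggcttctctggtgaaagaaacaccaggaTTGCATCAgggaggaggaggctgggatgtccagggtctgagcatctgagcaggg
ANGPTL4, chr19:8363905-8364150: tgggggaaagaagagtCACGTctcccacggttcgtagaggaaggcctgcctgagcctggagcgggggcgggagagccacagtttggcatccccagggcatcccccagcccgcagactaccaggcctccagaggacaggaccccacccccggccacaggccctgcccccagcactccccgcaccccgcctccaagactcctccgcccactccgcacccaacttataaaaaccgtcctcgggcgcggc
FGF21 held the C/EBP-ATF core on the reverse strand, 54 to 47 bases before its start, and this core was present in 0.772% of 35116 RefSeq promoters of the same length. ANGPTL4 held ACGTG on the reverse strand at 234 to 230 bases, a core found in 18.5% of promoters. GCGTG, found in 32.2%, lay 1 time each before ADM2 and ADM and 3 times before STC2. None of the motifs was found before GDF15, and the cyclic AMP element (1.65% of promoters) and the PPAR repeat (0.0171%) were found before none of the 6 genes. A match describes the letters in the window, and a missing match says nothing of the factor.

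The libraries held 17967283 to 18887497 counts each, and 14520 genes passed the filter on low counts and were tested. DNAJC12 itself was read 522, 523 and 492 times in the libraries that received it, against 1, 0 and 0 times with the empty vector. Genes of the line's mesenchymal state were abundant, with VIM, AXL, CD44, EGFR and CAV1 together at 3890 to 4450 CPM in overexpression libraries and 3180 to 3430 CPM with the empty vector, while of 5 luminal markers ESR1, PGR and FOXA1 had at most 5 counts in any library. The other luminal markers were read, ERBB2 at 85.2 ± 28.8 CPM with DNAJC12 and 106 ± 13.1 CPM with the empty vector and GATA3 at 4.57 ± 0.798 and 4.02 ± 0.229 CPM (SD, n = 3 each), and neither was called by edgeR (adjusted p = 0.645 and 0.817). CPM here are counts scaled to the library sizes that TMM normalization gave. Overexpression replicate 2 stood apart from replicates 1 and 3, with counts shifted towards GC-rich transcripts. Its mean transcript GC content was 54.3%, against 51.9% and 52.8% in the other overexpression libraries and 52.4%, 53.8% and 53.3% in empty vector replicates 1 to 3.

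Of the 8 factors, 2 were higher, 1 was lower and 4 were not called in the edgeR quasi-likelihood test, and FGF21 was too low to test. Over all tested genes, 0.585% were called higher and 0.661% lower, 1.25% in all. GDF15 and ADM2 rose about 5.30-fold and 6.03-fold in mean CPM, and ANGPTL4 fell to 0.283 of its empty vector level. In 6 of the 7 tested genes the overexpression and empty vector libraries did not overlap, in 3 upward and in 3 downward, where 9.26% of tested genes did so upward and 10.8% downward, 20.1% in all. The median log2 fold change of the 7 was 0.53, beside 0.05 over all tested genes. Without adjustment, 7.25% of tested genes were higher and 6.86% lower at p under 0.05. DESeq2 called 1.99% higher and 1.9% lower, edgeR after GC correction 8.84% and 8.53%, and edgeR without overexpression replicate 2 12.1% and 10.4%. Nothing about the 8 factors is read from these shares, since the genes were chosen with their values known. In cultured cells, a change in the number of cells that make a transcript and a change in the RNA made per cell cannot be told apart.

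**Figure D1:**
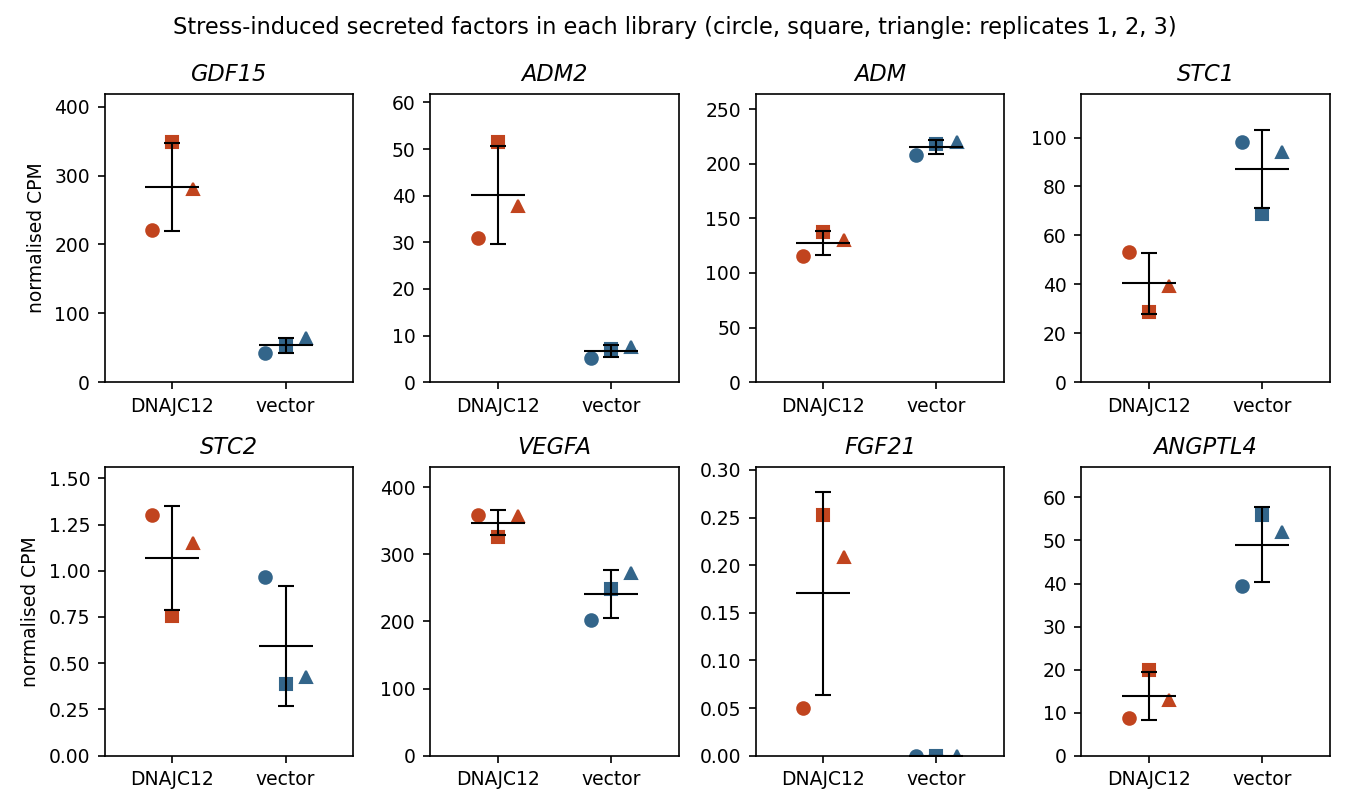
Normalised CPM of each factor in each library, with DNAJC12 overexpression left and empty vector right in every panel. Points are libraries, horizontal bars the mean and vertical bars the SD (n = 3), each panel with its own axis from 0. GDF15 and ADM2 lie far higher with DNAJC12, ANGPTL4, STC1 and ADM lower.

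GDF15, a distant member of the TGF-beta superfamily and a widely used marker of cell stress, had the highest level per length of the 8 with DNAJC12. The gene (ENSG00000130513, GRCh38 chromosome 19, 18374731 to 18389176, plus strand) gave counts of 4411, 5533 and 5388 with DNAJC12 and of 783, 977 and 1211 with the empty vector, in the order of replicates 1 to 3. Its level was 221, 349 and 281 CPM with DNAJC12, and 42.0, 54.3 and 64.5 CPM with the empty vector. The lowest overexpression library lay well above the highest empty vector library. The edgeR log2 fold change was 2.40 ± 0.26 SE (Benjamini-Hochberg adjusted p = 0.00342). GDF15 stayed under the threshold in each fit without 1 library, with adjusted p up to 0.0486, and missed it only in limma on log2(FPKM + 1) without a filter (0.0590).

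ADM2, or intermedin, is a peptide hormone of the calcitonin family that acts through the calcitonin receptor-like receptor. The gene (ENSG00000128165, plus strand of chromosome 22, 50481556 to 50486440) gave counts of 620, 817 and 723 with DNAJC12 and of 98, 128 and 143 with the empty vector. This was 31.0, 51.6 and 37.7 CPM with DNAJC12, and 5.25, 7.11 and 7.61 CPM with the empty vector. The groups were far apart, and in each of them the order of the libraries was the same as for GDF15. The edgeR adjusted p was 0.00402 at a log2 fold change of 2.59 ± 0.29 SE, and it too missed the threshold only in limma on FPKM without a filter (0.0590).

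ADM, adrenomedullin, is the paralog of ADM2 and shares its receptor, but its values lay in the other direction. The gene (ENSG00000148926, plus strand of chromosome 11, 10304680 to 10307397) had 2313, 2174 and 2492 counts with DNAJC12 and 3881, 3919 and 4138 with the empty vector. Its level was 116, 137 and 130 CPM in overexpression replicates 1 to 3, against 208, 218 and 220 CPM in empty vector replicates 1 to 3. All overexpression libraries lay below all empty vector libraries, and both groups were tight. The log2 fold change of -0.75 ± 0.19 SE did not pass edgeR (adjusted p = 0.0923). It did pass without overexpression replicate 2 (0.00245), after GC correction (0.00919) and by the DESeq2 Wald test (0.0300). Of the 6 fits without 1 library 1 called it, with edgeR adjusted p up to 0.413.

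**Figure D2:**
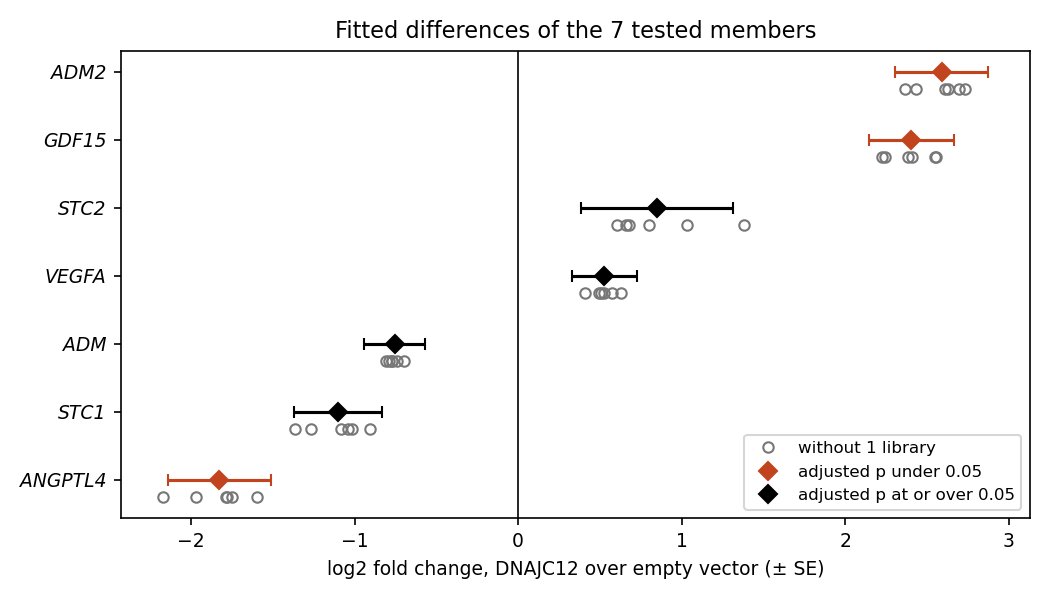
Fitted log2 fold changes, DNAJC12 over empty vector, with SE (diamonds) for the 7 tested factors, and the same from the 6 fits that each left out 1 library (open circles). Every open circle lies on the same side of 0 as its diamond, and GDF15 and ADM2 stay above 2.

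The stanniocalcins were read at very different levels. STC1 (ENSG00000159167, minus strand of chromosome 8, 23841915 to 23854807) had 1067, 453 and 756 counts with DNAJC12 and 1835, 1240 and 1767 with the empty vector. That was 53.4, 28.6 and 39.4 CPM in overexpression replicates 1 to 3, and 98.3, 68.9 and 94.0 CPM in empty vector replicates 1 to 3. The groups did not overlap, and the library numbered 2 was the lowest of each. The log2 fold change was -1.10 ± 0.27 SE and was not called by edgeR (adjusted p = 0.0920). It was called without overexpression replicate 1 (0.0137) or 2 (0.00785), after GC correction (0.000104) and by the DESeq2 Wald test (0.00705). Of the 6 fits without 1 library 2 called it, with edgeR adjusted p up to 0.404.

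STC2 (ENSG00000113739, minus strand of chromosome 5, 173314713 to 173329503) was barely read, with 26, 12 and 22 counts with DNAJC12 and 18, 7 and 8 with the empty vector. The groups overlapped, at 1.30, 0.758 and 1.15 CPM in overexpression replicates 1 to 3 and 0.965, 0.389 and 0.426 CPM in empty vector replicates 1 to 3. Its log2 fold change of 0.85 ± 0.47 SE was not called by edgeR (adjusted p = 0.464) or in any of the 15 alternatives that tested it. Its log2 fold change lay between 0.61 and 1.38 over the fits that each left out a single library.

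VEGFA, the main growth factor of blood vessels, had the most counts of the 8 when the libraries of a group were summed, though not in every library. The gene (ENSG00000112715, plus strand of chromosome 6, 43770184 to 43786487) had 7165, 5157 and 6852 counts with DNAJC12 and 3773, 4458 and 5124 with the empty vector. Its level was 358, 326 and 357 CPM in overexpression replicates 1 to 3, and 202, 248 and 273 CPM in empty vector replicates 1 to 3. Every overexpression library was above every empty vector library, by a smaller ratio than for GDF15 or ADM2. The log2 fold change was 0.53 ± 0.20 SE and was not called by edgeR (adjusted p = 0.264). It was called without overexpression replicate 2 (0.0188) and after GC correction (0.0328), but not by the DESeq2 Wald test (0.255). Of the 6 fits without 1 library 1 called it, with edgeR adjusted p up to 0.710.

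ANGPTL4, the secreted inhibitor of lipoprotein lipase, fell. The gene (ENSG00000167772, plus strand of chromosome 19, 8363289 to 8374373) had 177, 314 and 247 counts with DNAJC12 and 734, 1006 and 975 with the empty vector. Its level was 8.86, 19.8 and 12.9 CPM in overexpression replicates 1 to 3, against 39.3, 55.9 and 51.9 CPM in empty vector replicates 1 to 3. The highest overexpression library was at 19.8 CPM and the lowest empty vector library at 39.3 CPM. The log2 fold change was -1.83 ± 0.32 SE with an edgeR adjusted p of 0.0305. Leaving out overexpression replicate 3 (0.176), or empty vector replicate 1 (0.108), 2 (0.123) or 3 (0.151), ended the call, with log2 fold changes of -2.17 to -1.60 over the fits without 1 library.

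FGF21, a hormone made mainly in liver, was at the limit of detection. The gene (ENSG00000105550, plus strand of chromosome 19, 48755559 to 48758333) had 1, 4 and 4 counts with DNAJC12 and 0, 0 and 0 with the empty vector. A count of 0 allows up to 3 counts per library, which corresponds to 0.160 to 0.167 CPM with the empty vector. Overexpression replicates 2 and 3 were just above this, at 0.253 and 0.209 CPM, and replicate 1 below it, so no fold is given, and FGF21 did not pass the filter. Intervals and floors of this kind cover counting error only.

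Per length, the order of the factors differed between the groups. Levels are compared here in FPKM, as deposited by the authors, whose gene lengths equal the union of annotated exons. With DNAJC12 the order was GDF15 (134.7 ± 31.5), ADM (46.5 ± 4.25), VEGFA (23.8 ± 1.11), STC1 (9.65 ± 2.91), ADM2 (9.30 ± 2.50) and ANGPTL4 (5.54 ± 2.26 FPKM, SD, n = 3), with STC2 at 0.172 ± 0.0442 FPKM and FGF21 listed at 0.0375, 0.192 and 0.156 FPKM. Of these neighbours, STC1 and ADM2, ADM2 and ANGPTL4, and STC2 and FGF21 overlapped between libraries. With the empty vector ADM led (78.8 ± 2.74), followed by GDF15 (25.6 ± 5.46), STC1 (20.9 ± 3.73), ANGPTL4 (19.7 ± 3.56) and VEGFA (16.6 ± 2.53), then ADM2 (1.55 ± 0.296 FPKM, SD, n = 3). There GDF15, STC1, ANGPTL4 and VEGFA overlapped, each with its neighbour. VEGFA is divided by a union length of 14431 bases, longer than the other lengths of 1315 to 6128 bases, which lowers its FPKM relative to its counts.

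Ratios of FPKM within a library do not depend on how the library was scaled. The libraries with DNAJC12 had ratios of ADM2 to its paralog ADM of 0.170, 0.239 and 0.184, those with the empty vector 0.0161, 0.0208 and 0.0220, a 10.1-fold difference between the group means. GDF15 over ADM was 2.48, 3.31 and 2.82 with DNAJC12, against 0.263, 0.325 and 0.381 with the empty vector, so the more abundant of this pair per length was GDF15 in every overexpression library and ADM in every empty vector library. GDF15 over ADM2 differed little, at 14.6, 13.9 and 15.3 with DNAJC12 and 16.4, 15.6 and 17.4 with the empty vector. The groups did not overlap, and the overexpression mean was 0.886 of the empty vector mean. VEGFA over ADM, a pair that HIF is known to raise together, was 0.583, 0.447 and 0.518 with DNAJC12 and 0.183, 0.214 and 0.233 with the empty vector. STC1 over STC2 was 60.6, 55.8 and 50.8 with DNAJC12 and 151, 262 and 326 with the empty vector, the last resting on 7 to 18 STC2 counts.

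**Figure D3:**
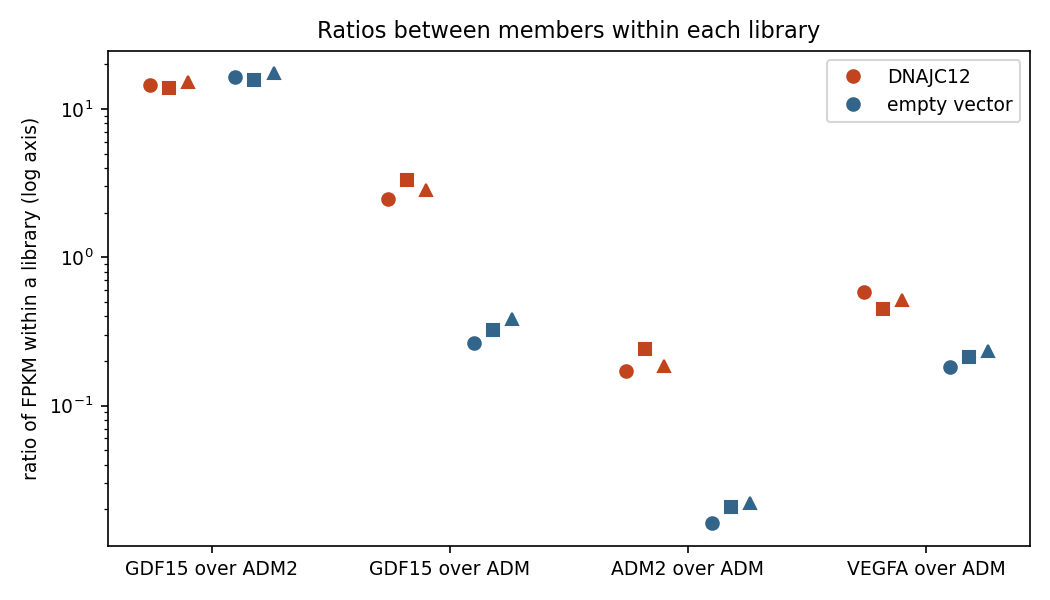
Ratio of FPKM between pairs of factors within each library, on a log axis, for DNAJC12 (left in each pair) and empty vector libraries, with circles, squares and triangles for replicates 1, 2 and 3. GDF15 over ADM2 is close between groups but without overlap, while GDF15 over ADM and ADM2 over ADM differ 8.89-fold and 10.1-fold between the group means.

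GDF15 and ADM2 were each other's nearest gene. Likeness was the root-mean-square difference of log2 CPM over the 6 libraries, after each gene's own mean was subtracted, among 12479 tested protein-coding genes. Between GDF15 and ADM2 it was 0.0984. The libraries of these genes are shared and carry the same group difference and GC trend, so this is a description of 6 libraries. The nearest genes of the others were no members of the group, namely CCDC149 for ADM (0.0613), ST3GAL5 for STC1 (0.116), LDAH for STC2 (0.0815), RNF217 for VEGFA (0.0362) and CACNG7 for ANGPTL4 (0.153). Among the factors themselves, ADM was the nearest to STC1 (0.418) and to ANGPTL4 (0.632), and VEGFA to STC2 (0.520).

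Overexpression replicate 2 deviated from replicates 1 and 3 in both directions among the factors, as it did among all genes by the GC content of their transcripts. In replicate 2, log2 CPM lay above the mean of replicates 1 and 3 by 0.89 for ANGPTL4 (63.5% GC), 0.59 for ADM2 (68.2%), 0.49 for GDF15 (60.0%) and 0.16 for ADM (59.9%). It lay at -0.14 for VEGFA (57.8%), -0.62 for STC2 (55.2%) and -0.68 for STC1 (43.9%). The median GC content of all tested genes was 50.3%, so VEGFA and STC2 were GC-richer than most and yet lower in replicate 2. STC2 had 12 counts in that library. Over all tested genes the median was 0.73 in the fifth with the highest GC content and -1.06 in the fifth with the lowest. Empty vector replicate 2 deviated from replicates 1 and 3 of its group by 0.31 for ANGPTL4, 0.167 for ADM2 and 0.062 for GDF15. It deviated by 0.025 for ADM, 0.077 for VEGFA, -0.48 for STC1 and -0.61 for STC2, which had 7 counts there. GC correction was chosen with the trend known. After it, log2 fold changes were 2.48 for GDF15, 2.56 for ADM2, -0.66 for ADM, -1.22 for STC1, 0.65 for VEGFA and -1.82 for ANGPTL4. Each of these 6 was called by edgeR with an adjusted p of at most 0.0328. In that fit 8.84% of all tested genes were called higher and 8.53% lower.

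**Figure D4:**
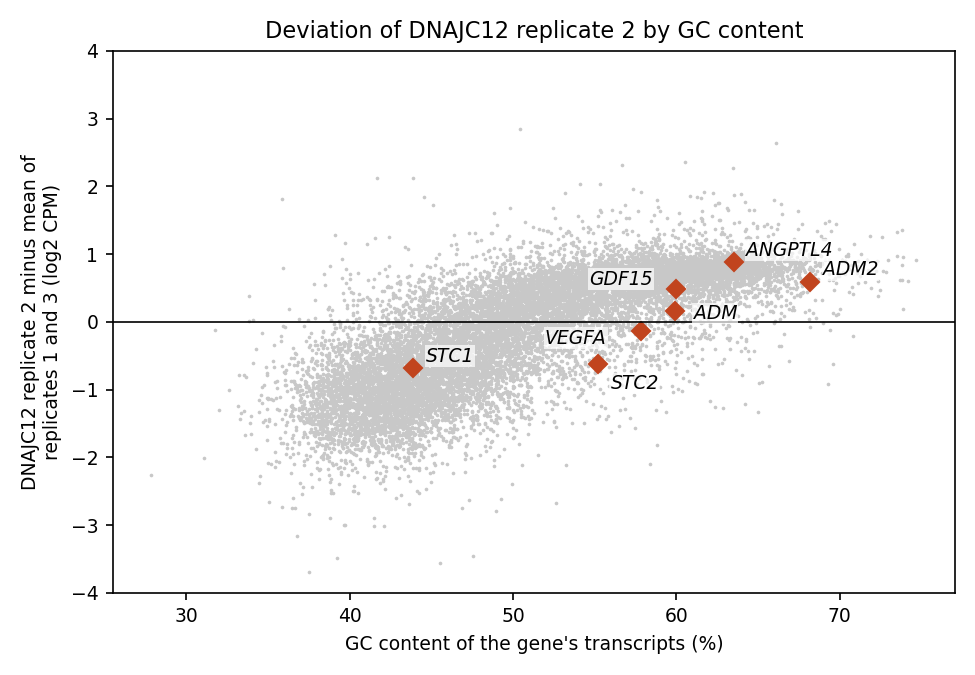
Log2 CPM of DNAJC12 overexpression replicate 2 minus the mean of replicates 1 and 3, against the mean GC content of a gene's transcripts, for all tested genes (grey) and the 7 tested factors (diamonds). The grey cloud climbs with GC content, from a median of -1.06 in the fifth with the lowest GC content to 0.73 in the fifth with the highest, and STC1 lies at its low end, ANGPTL4 and ADM2 at its high end.

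Regulators of the integrated stress response and the unfolded protein response were also looked at. This list was chosen with earlier results of these data known, and its link to GDF15 and ADM2 was not tested. Of 18 regulators, all tested, 3 rose, none fell and 15 were not called by edgeR. Over all tested genes 0.585% rose and 0.661% fell. TRIB3, a pseudokinase that feeds back on ATF4, had a log2 fold change of 3.10 (adjusted p = 0.00117), and NUPR1, a stress-induced chromatin protein, one of 2.82 (0.00117). CEBPG, a C/EBP partner of ATF4, rose by 1.87 (0.0310), but was not called without overexpression replicate 3 (0.165) or without empty vector replicate 1 (0.166), 2 (0.163) or 3 (0.153). ATF4 itself, at 656 ± 54.2 CPM with DNAJC12 and 393 ± 15.9 CPM with the empty vector (SD, n = 3), had a log2 fold change of 0.74 (adjusted p = 0.0923), and DDIT3, the stress factor CHOP, one of 0.81 (0.149). Without overexpression replicate 2 both were called (0.00437 and 0.00590). That was 1 of the 6 fits without 1 library, over which the edgeR adjusted p reached 0.440 and 0.581. ATF4 was called in 6 of 18 alternatives and DDIT3 in 5. The list's median was 0.60, and in 11 of the 18 regulators every overexpression library lay above every empty vector library, as in 9.26% of all tested genes. The number that rose was 12 after GC correction, where 1 fell and 8.84% of all genes rose, 11 without overexpression replicate 2, where 12.1% of all genes rose, and 2 when overexpression replicate 3 or a single empty vector library was left out.

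Genes of the oxygen-sensing pathway, to which ADM, VEGFA, STC1 and ANGPTL4 also belong, had values in both directions. Of 26 HIF targets outside the 8 factors, all tested, 1 fell, none rose and 25 were not called. Over all tested genes 0.661% fell and 0.585% rose. EGLN3, a prolyl hydroxylase that marks HIF for destruction and is itself a HIF target, had a log2 fold change of -1.47 (adjusted p = 0.0119 by edgeR), lost without overexpression replicate 3 (0.131) or without empty vector replicate 1 (0.0917), 2 (0.0877) or 3 (0.113). The most abundant targets, the glycolytic genes ENO1 and LDHA, were at -0.36 (0.584) and -0.78 (0.0755) on the log2 scale. Without overexpression replicate 2 both were called, ENO1 at -0.70 (0.00749) and LDHA at -0.74 (0.00529), while ENO1 was at -0.19 (0.780) without overexpression replicate 1. Over the 26 targets the median was -0.35, with 20 values below 0 and 6 above. In 10 of the 26 targets all overexpression libraries lay below all empty vector libraries, beside 10.8% of all tested genes, and in 3 all lay above, which is near the 9.26% of all tested genes. After GC correction 11 targets fell and 3 rose, beside 8.53% and 8.84% of all tested genes. Without overexpression replicate 2, 13 fell and 4 rose, beside 10.4% and 12.1% of all tested genes.

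Of 6 genes that make up the HIF system, EPAS1, which encodes the HIF-2 alpha subunit, rose and the others were not called. Over all tested genes 0.585% rose. EPAS1 had a log2 fold change of 1.18 (edgeR adjusted p = 0.0226), lost without overexpression replicate 3 (0.165) or without empty vector replicate 1 (0.150), 2 (0.153) or 3 (0.156). HIF1A, the HIF-1 alpha subunit, had one of 0.86 (0.366), which was 0.29 (0.703) without overexpression replicate 1 and 1.19 (0.00433) without replicate 2, and was called in 6 of 18 alternatives. HIF1AN, an asparagine hydroxylase that restrains HIF, had one of 0.02 (0.975), which changed sign in 5 of 18 alternatives. None of 6 PPAR system genes, 10 tested PPAR targets and 12 p53 targets was called by the main edgeR fit or DESeq2. Their medians were 0.22, -0.38 and 0.14. At an unadjusted p under 0.05 there were 0 PPAR system genes, 2 PPAR targets, both lower, and 1 p53 target, higher. Of all tested genes 7.25% were higher and 6.86% lower. After GC correction edgeR called 1 PPAR system gene higher and 1 lower, 1 PPAR target lower and no p53 target. There 8.84% of all tested genes were higher and 8.53% lower. The count without overexpression replicate 2 was 1 higher among PPAR system genes, 2 lower among PPAR targets, and 2 higher and 1 lower among p53 targets. In that fit 12.1% of all tested genes were higher and 10.4% lower.

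**Figure D5:**
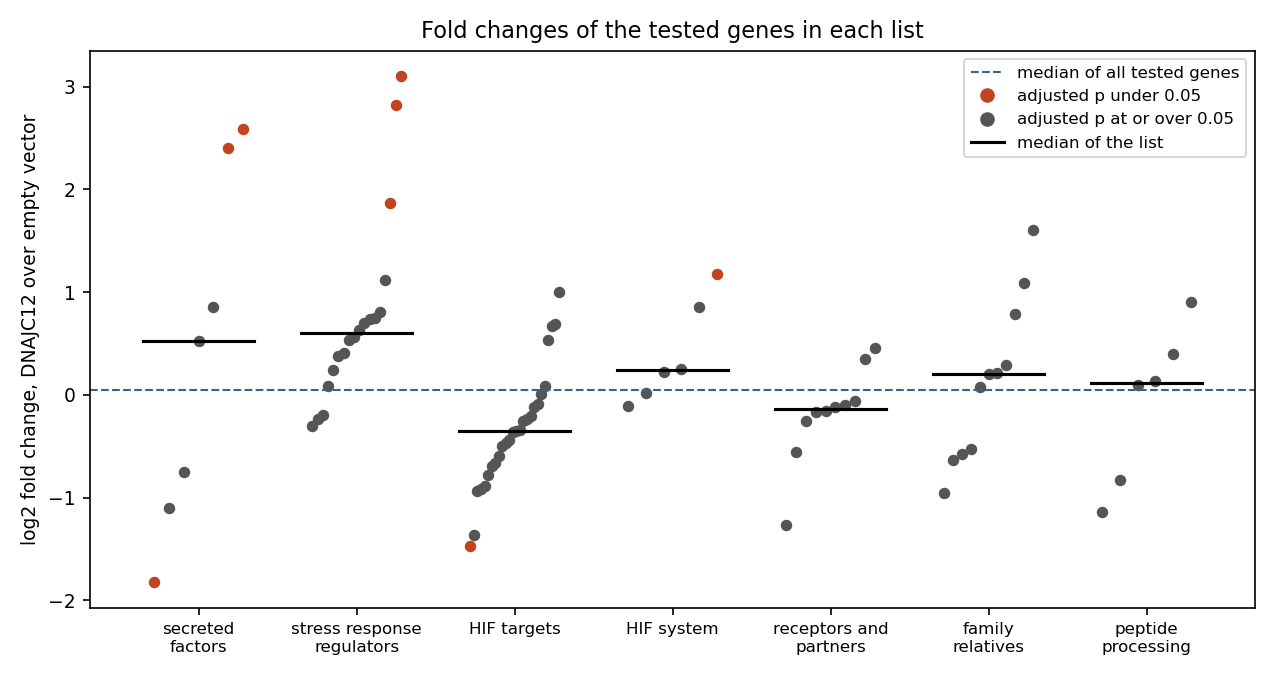
Log2 fold changes, DNAJC12 over empty vector, of the tested genes of each list, 1 point a gene, with the list's median (black line) and the median of all tested genes (dashed, 0.05). The stress response regulators centre at 0.60 and the HIF targets at -0.35, and the genes called in these lists are their highest or lowest points.

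Receptors and partners of the 8 factors gave no call by edgeR. Of 20 listed, 10 passed the filter and none was called by edgeR, with a median log2 fold change of -0.14. Without adjustment, 0 were higher and 1 lower at p under 0.05, beside 7.25% and 6.86% of all tested genes. DESeq2 and edgeR after GC correction each called 1 lower, beside 1.9% and 8.53% of all tested genes. The most abundant were FGFR1, which binds FGF21 together with beta-klotho (log2 fold change -0.16, adjusted p = 0.817), and NRP1, a VEGFA co-receptor (0.46, 0.498). Over the fits that left out a single library FGFR1 lay between -0.41 and -0.025 with no call, and NRP1 between 0.18, without overexpression replicate 1, and 0.70, without replicate 2, where it was called (0.0107). GFRAL, the GDF15 receptor, CALCRL, the receptor shared by ADM and ADM2, and KLB, beta-klotho, did not pass the filter. These were named after their values were seen, and had at most 2 counts in any library. Without overexpression replicate 2, 2 receptors or partners were higher and 1 lower, beside 12.1% and 10.4% of all tested genes.

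Family relatives and processing enzymes gave no call by edgeR either. None of 11 tested relatives was called by edgeR (median 0.20), which without adjustment gave 3 higher and 3 lower at p under 0.05, beside 7.25% and 6.86% of all tested genes. DESeq2 called 1 relative higher, where it called 1.99% of all tested genes higher. After GC correction edgeR called 1 relative higher and 2 lower, beside 8.84% and 8.53% of all tested genes. The most abundant, TGFB1 and VEGFB, had log2 fold changes of 0.20 (adjusted p = 0.781) and 0.21 (0.784), both below 0 without overexpression replicate 2, at -0.091 and -0.11. None of 6 tested peptide-processing genes was called by edgeR or DESeq2 (median 0.11), and without adjustment 1 was higher and 2 were lower at p under 0.05, beside the same shares of all genes. After GC correction edgeR called 2 processing genes higher and 1 lower, beside 8.84% and 8.53% of all tested genes. FURIN, the convertase that cuts pro-GDF15, had a log2 fold change of 0.40 (0.539), which was 0.11 (0.654) without overexpression replicate 2 and 0.44 (0.00794) after GC correction. PAM, which amidates the adrenomedullins, had one of 0.10 (0.911), which turned to -0.097 when overexpression replicate 1 was left out and to -0.0081 when empty vector replicate 2 was. Without overexpression replicate 2, 3 relatives rose and 1 fell, and 1 processing gene rose and 1 fell. In that fit 12.1% of all tested genes rose and 10.4% fell.

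Most endothelial, immune, adipocyte and hepatocyte markers were near 0, and PECAM1 and CD14 were not. PECAM1, an endothelial adhesion molecule, had 110, 70 and 73 counts with DNAJC12 and 423, 272 and 319 with the empty vector, a log2 fold change of -1.99 (edgeR adjusted p = 0.0125). The call was lost without overexpression replicate 3 (0.133) or without empty vector replicate 1 (0.101) or 3 (0.0883). The other endothelial markers VWF, CDH5 and TEK had at most 4 counts in any library, and the 4 together were at 4.12 to 5.80 CPM with DNAJC12 and 15.6 to 22.8 CPM with the empty vector. Its part in the differences of the secreted factors was not tested. Of the immune markers reported, CD3E had 0 counts throughout and PTPRC at most 2 in any library, and CD14, a monocyte marker, was at 8.94 ± 3.9 CPM with DNAJC12 and 7.15 ± 1.01 CPM with the empty vector (SD, n = 3 each). Of 5 adipocyte and hepatocyte markers, cells in which ANGPTL4 and FGF21 are normally made, ADIPOQ and LEP had 0 counts throughout and the 5 together reached 0.947 CPM with DNAJC12 and 1.17 CPM with the empty vector.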

How the data were processed

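Gene-level RNA sequencing values of 6 MDA-MB-231 libraries were used, 3 carrying the DNAJC12 vector and 3 the empty one. Groups and replicate numbers follow the labels. HISAT2 2.0.5 and hg19 are named in the submitters' processing notes. All 58735 gene identifiers, symbols and coordinates equal those of GENCODE 29 on GRCh38, so coordinates are given as GRCh38. No source used here gives the counting program or its strand setting. Without strand, reads of overlapping genes cannot be told apart. MIR3189 inside GDF15 had at most 8 counts in a library, and RAB11B-AS1 shares 1 base with ANGPTL4. The authors deposited a count of reads per gene and library, and FPKM values, in which each count is scaled by gene length and a single library depth of 0.854 to 1.10 times the total count.

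All genes were tested in R 4.3.3 by the quasi-likelihood method of edgeR 4.0.16, with TMM normalization, filterByExpr (minimum count 10, minimum total 15), robust dispersions and Benjamini-Hochberg adjustment over 14520 genes at 0.05. Genes not tested held 0.129% of counts. The common coefficient of variation that edgeR fitted beyond counting error was 26.6%, which may include technical spread. A fold change sets DNAJC12 over empty vector. With 3 against 3 libraries no single-gene permutation test was run. The alternatives tried were a Wald test by DESeq2 1.42.0, its size factors in edgeR, a replicate block, no filter, a minimum of 1 CPM in 3 libraries, omission of each library, omission of both libraries numbered 2, library sizes without DNAJC12, limma 3.58.1 on log2(FPKM + 1) or log2(FPKM + 0.1) with at least 0.5 FPKM in 3 libraries or no filter, and a loess GC correction (span 0.3), with and without the block. A pseudocount understates changes of low genes. Only the main edgeR fit was tested on simulated counts, with 200 genes changed. The simulation held no GC shift and no deviating library, and the alternatives were not simulated.

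The 8 genes, the gene lists and the alternatives were chosen with earlier results of these data known. All 8 genes are named. From each list described, the rule took up to 4 called genes, or the 2 most abundant where fewer than 2 were called, and for each tested factor its nearest gene. ATF4, DDIT3, HIF1A, GFRAL, CALCRL, KLB and the marker genes at 0 were added after their values were seen. A result on 1 marker is not reported here. Python 3.11.15 (pandas 2.3.3, matplotlib 3.10.9) was used for tables and plots.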

Additional observations from a re-analysis of the deposited data

How the results depend on the processing

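All 7 tested factors kept the sign of their fold change in every alternative that tested them, 18 for each and 15 for STC2. GDF15 and ADM2 were called in 17 of 18, ANGPTL4 in 13, STC1 in 8, ADM in 7, VEGFA in 5 and STC2 in none. DNAJC12 was called in all 18. The number of factors called lower was 3 by the DESeq2 Wald test, where 276 of 14520 tested genes were lower. It was also 3 without a filter (322 of 27310 genes) and with the replicate block (926 of 14520). After GC correction it was 3 without the block (1238 of 14520) and with it (1516 of 14520). Without both libraries numbered 2 it was 3, beside 1240 of 14737 genes. By limma on log2(FPKM + 1) without a filter 0 factors were lower and 0 higher, beside 4 and 8 of 27310 genes. The number of factors called lower ran from 0 to 3 over the fits without 1 library, where 6 to 1560 genes were lower. Those fits have fewer samples.

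Over all genes, 85 were higher and 96 lower. The DESeq2 Wald test gave 289 and 276, no filter 366 and 322, and limma on log2(FPKM + 1) without a filter 8 and 4. The replicate block gave 1011 and 926, GC correction 1283 and 1238, GC correction with the block 1579 and 1516, and leaving out both libraries numbered 2 gave 1514 and 1240. Over the fits without 1 library the counts ran from 15 to 1805 and from 6 to 1560, the highest without overexpression replicate 2. In the main fit 0.585% of all tested genes were higher and 0.661% lower. Over the gene lists other than the cell type markers, 4 of 105 tested genes were higher and 1 lower. This became 8 and 6 by DESeq2, 9 and 8 without a filter, 18 and 16 with the replicate block, 21 and 18 after GC correction, 25 and 23 with both, and 22 and 17 without both libraries numbered 2. The filter of 1 CPM and limma on log2(FPKM + 0.1) gave 2 lower, limma on log2(FPKM + 1) without a filter 2 and 0, and the fits without 1 library 2 to 26 and 0 to 19. Of all tested genes, DESeq2 called 1.99% higher and 1.9% lower, and edgeR after GC correction 8.84% and 8.53%. Without overexpression replicate 2 the shares were 12.1% and 10.4%. The cause of these shifts was not tested.

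The replicate block brought ADM (adjusted p = 0.000872), STC1 (1.58e-07) and VEGFA (0.0296) under the edgeR threshold. With it 1011 of 14520 tested genes were called higher and 926 lower. Same-numbered libraries correlated in their deviations from the group means at 0.448, 0.585 and 0.034, and those numbered 3 correlated better with libraries numbered 1, so the numbers are not taken to pair the samples. When each library was omitted in turn, the log2 value lay between -0.091 and 0.38 for TGFB1, -0.11 and 0.41 for VEGFB, -0.097 and 0.32 for PAM and -0.068 and 0.088 for HIF1AN. VEGFB was also below 0 without both libraries numbered 2 (-0.067). HIF1AN was below 0 without a filter (-0.0047), without both libraries numbered 2 (-0.046) and with GC correction and the block (-0.017).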
